A study of Homo sapiens with 96 samples.

Results

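UGT2B7, UGT2B10, UGT2B11, UGT2B15, UGT2B17 and UGT2B28 are 6 of the 18571 genes measured, and they encode UDP-glucuronosyltransferases of the family that clears androgens. They were taken by symbol from the platform annotation, and a gene with several probes was represented by the probe with the highest mean over all 96 arrays. All 6 passed the filter on dim probes, which asked for a value above the median of its own array in at least 3 arrays. In the reference annotation the 6 genes lie in one cluster on chromosome 4, and UGT2B11 and UGT2B28 are neighbours there.

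UDP-glucuronosyltransferases join glucuronic acid to steroids, bile acids and drugs, which makes them soluble and ready for excretion. In the prostate, UGT2B15 and UGT2B17 conjugate dihydrotestosterone and its metabolites, and so end the androgen signal inside the cell. UGT2B28 also acts on steroids, UGT2B7 acts on many substrates including opioids and bile acids, UGT2B10 joins glucuronic acid to the nitrogen of amines such as nicotine, and UGT2B11 has few well-defined substrates.

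The cells were of the LAPC4 line, which comes from a human prostate cancer and responds to androgens. Cultures received 1 of 28 chemicals together with 0.33 nM R1881, a synthetic androgen, or R1881 alone, or 0.05% DMSO, the solvent, and RNA was collected after 6 h. Each chemical had 3 arrays, and R1881 alone and DMSO had 6 each. The androgen therefore was present in every group except DMSO. The dose was 20 uM for 18 chemicals, namely Apigenin, Atrazine, Bicalutamide, BisphenolA, Cyproterone acetate, DDE, Dehydroepiandrosterone, Fenitrothion, Finasteride, Flutamide, Hydroxyflutamide, Iprodione, Linuron, Prochloraz, Procymidone, Spironolactone, Tebuconazole and Vinclozolin. Progesterone, Androstenedione, Triticonazole, Mifepristone and Dexamethasone were given at 10 uM. Trenbolone, Dihydrotestosterone, Testosterone propionate, Norethindrone and MethylTestosterone were given at 0.5 uM.

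All levels are log2 intensities of the Illumina probes as deposited, so a difference of 1 is a doubling of intensity, and the median of every array was 6.72. Errors of group means are SD over arrays, and errors of changes are SE from limma. The p-values come from limma, were adjusted by Benjamini-Hochberg over the 18571 genes of each comparison, and a gene was called at adjusted p under 0.05. Differences between the levels of different probes are not read as differences in amount of transcript. Percentiles give only how bright a probe was among all probes. In such bulk RNA a change in the kinds of cells and a change in RNA per cell cannot be told apart.

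Of 9 measured markers of luminal prostate epithelium, 7 lay above the 75th percentile of all probes on average, with FOXA1 at percentile 98.3 and KLK3 at percentile 55.0. Markers of basal epithelium, stroma, neuroendocrine cells and hepatocytes lay below the 60th percentile for 4 of 5, 4 of 6, 4 of 5 and 5 of 6 genes. The arrays formed 2 clusters over all genes other than the UGT2B genes, called A (34 arrays) and B (62 arrays). Cluster A held 23 arrays numbered 3 in the labels, 11 numbered 1 and 0 numbered 2. In cluster B, 5 arrays are said to stand apart, since each had a correlation under 0.9 with the median profile of its own cluster. They were Trenbolone 2, Spironolactone 2, Testosterone propionate 2, MethylTestosterone 2 and Flutamide 3. Their mean luminal marker level ranged from 7.17 to 9.51, against 9.03 to 9.79 in the other 91 arrays. Values are given with all arrays unless it is said that these 5 were left out.

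RefSeq (GRCh38.p14) gave promoter sequence for 4 of the 6 genes in the table used here. The 250 bases before the start of transcription given in that table are shown, read along the strand of the gene, because UGT2B11 and UGT2B10 have nearly the same letters there and UGT2B11 changed under R1881 while UGT2B10 was not called. Capitals mark exact matches to AGAACA, a half-site of steroid hormone receptors, or to the forkhead motifs TGTTTAC and TGTTTAT, searched on both strands. No match overlapped another.
UGT2B11: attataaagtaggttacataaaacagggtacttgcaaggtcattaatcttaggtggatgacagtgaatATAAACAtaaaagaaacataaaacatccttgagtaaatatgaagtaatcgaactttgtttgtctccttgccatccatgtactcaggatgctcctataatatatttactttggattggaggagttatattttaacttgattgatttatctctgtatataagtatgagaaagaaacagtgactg
UGT2B10: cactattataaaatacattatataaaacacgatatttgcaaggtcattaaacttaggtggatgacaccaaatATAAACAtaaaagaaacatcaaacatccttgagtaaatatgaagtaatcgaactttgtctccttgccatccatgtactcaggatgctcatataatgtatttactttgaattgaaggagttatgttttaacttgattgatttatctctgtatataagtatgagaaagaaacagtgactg
UGT2B15: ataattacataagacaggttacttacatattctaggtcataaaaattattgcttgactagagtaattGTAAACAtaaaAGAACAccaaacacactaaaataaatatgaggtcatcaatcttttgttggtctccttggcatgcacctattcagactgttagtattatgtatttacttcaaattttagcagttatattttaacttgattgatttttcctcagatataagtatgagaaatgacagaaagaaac
UGT2B7: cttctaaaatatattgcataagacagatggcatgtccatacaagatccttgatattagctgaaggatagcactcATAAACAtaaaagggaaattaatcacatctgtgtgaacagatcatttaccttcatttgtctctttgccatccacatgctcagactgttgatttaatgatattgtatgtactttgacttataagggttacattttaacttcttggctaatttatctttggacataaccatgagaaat

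The windows of UGT2B11 and UGT2B7 lie inside the annotated span of the gene, so the start used for them is not the outermost one, while those of UGT2B10 and UGT2B15 adjoin it. The windows are chr4:69214749-69214998 on the minus strand for UGT2B11, chr4:68815744-68815993 on the plus strand for UGT2B10, chr4:68670653-68670902 on the minus strand for UGT2B15 and chr4:69096224-69096473 on the plus strand for UGT2B7. UGT2B11 and UGT2B10 were identical at 229 of 254 aligned positions, or 90.2%, whereas the other 5 pairs were identical at 61.0% to 70.7%. TGTTTAT lay on the opposite strand 182 to 176 bases before the start in UGT2B11, 178 to 172 in UGT2B10 and 176 to 170 in UGT2B7. UGT2B15 held TGTTTAC at 183 to 177 bases and AGAACA at 172 to 167 bases before its start. Over 27305 promoters of the same length, TGTTTAT was found in 3.84%, TGTTTAC in 2.98% and AGAACA in 12.4%. A match of letters is a description and shows no binding.

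R1881 against DMSO asks which of these genes the androgen itself changed within 6 h. UGT2B11 and UGT2B28 rose, and the 4 other members were not called. Over all genes 0.124% were called in this comparison, and 0.727% had groups that did not overlap.

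UGT2B11 read 8.38, 8.59, 8.59, 8.19, 8.61 and 8.55 in the R1881 arrays, against 6.84, 6.72, 6.73, 6.88, 6.71 and 6.83 in the DMSO arrays. The lowest R1881 array lay well above the highest DMSO array, and the DMSO arrays were close to the median of their arrays. The mean with R1881 was 8.48 ± 0.17, against 6.79 ± 0.07 with DMSO (SD, 6 arrays per group), so UGT2B11 rose by 1.70 on the log2 scale (SE 0.11, adjusted p = 8.78e-20 by limma). UGT2B11 had the smallest p-value of all genes in this comparison and ranked 7 by size of change.

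UGT2B28 read 7.27, 7.56, 7.69, 6.89, 7.05 and 7.67 in the R1881 arrays, against 6.47, 6.55, 6.67, 6.53, 6.45 and 6.57 in the DMSO arrays. The 2 groups did not overlap, but the R1881 arrays were spread widely and every DMSO array lay below the median of its array. UGT2B28 averaged 7.35 ± 0.34 with R1881, against 6.54 ± 0.08 with DMSO (SD, 6 arrays per group), and so rose by 0.81 on the log2 scale (SE 0.15, adjusted p = 0.000905 by limma). Both R1881 arrays of cluster A read 7.67 to 7.69, and the 4 of cluster B read 6.89 to 7.56. Within cluster A, UGT2B28 was 1.06 higher under R1881 than under DMSO (2 arrays each), and within cluster B 0.69 higher (4 arrays each). UGT2B11 was 1.79 higher in cluster A and 1.65 higher in cluster B. Whether the clusters differ in these changes was not tested.

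The call of UGT2B28 was lost when fewer control samples entered the fit. With controls 1 to 3 alone the difference was 0.94 with adjusted p = 0.0561, with controls 1b to 3b alone it was 0.68 with adjusted p = 1, and with same-numbered control arrays averaged it was 0.81 with adjusted p = 0.4 (limma). UGT2B11 was called in all of these. Over all genes without missing values, the 3 same-numbered pairs of control arrays had root mean square differences of 0.127 to 0.346 under R1881 and 0.0929 to 0.17 under DMSO, whereas the 12 other pairs of each group had 0.313 to 0.603 and 0.267 to 0.52. The labels do not say whether same-numbered arrays share a culture or an extract.

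UGT2B17, which conjugates testosterone and dihydrotestosterone, read 7.39 to 7.97 with a median of 7.54 under R1881, against 7.50 to 8.15 with a median of 7.88 under DMSO. The groups overlapped over most of their range. The change was -0.22 (SE 0.22, 95% interval -0.67 to 0.22, adjusted p = 1 by limma), and within the clusters it was -0.20 in A and -0.24 in B.

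UGT2B15, its partner in androgen clearance, read 6.47 to 7.66 with a median of 7.05 under R1881, against 6.61 to 7.62 with a median of 7.24 under DMSO, and the ranges nearly coincided. The change was -0.05 (95% interval -0.66 to 0.56). UGT2B10 changed by 0.09 (95% interval -0.07 to 0.26) and UGT2B7 by -0.03 (95% interval -0.11 to 0.06), each with adjusted p = 1 by limma. The probes of 4 of the 6 genes were dim, with a mean below the 60th percentile of all probes: UGT2B10 at 39.8, UGT2B28 at 42.7, UGT2B7 at 45.1 and UGT2B15 at 56.8. UGT2B11 lay at percentile 73.6 and UGT2B17 at 78.1. For dim probes, and for UGT2B11 in the DMSO arrays, the distance from the background of the array is not known, so a log2 difference may understate the change of transcript and no fold is given.

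**Figure D1:**
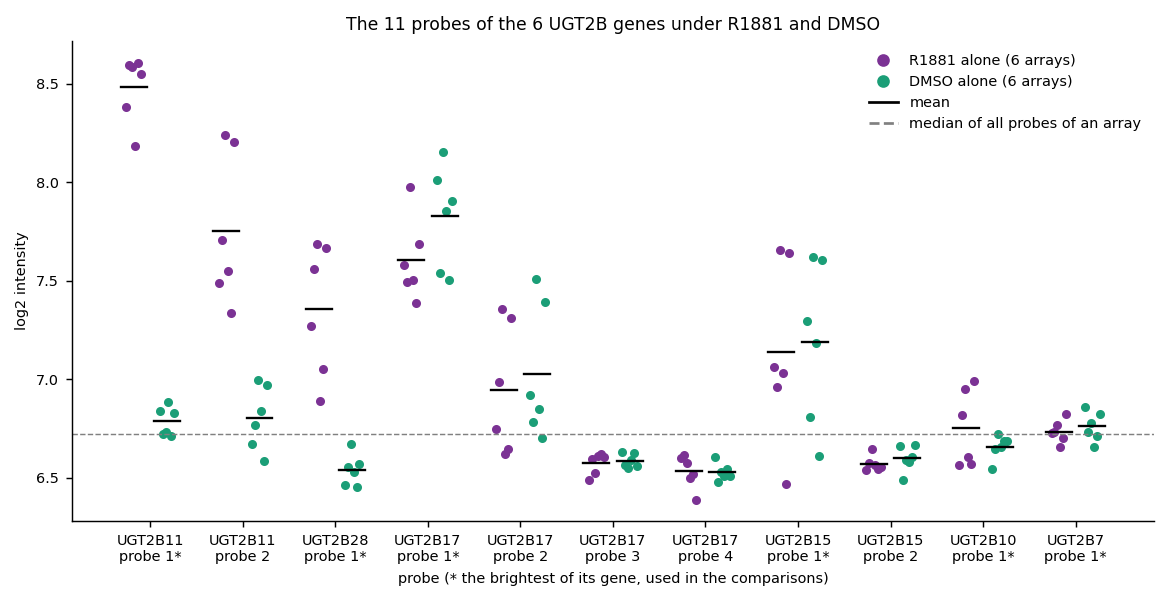
Log2 intensity of the 11 probes of the 6 genes in the 6 R1881 arrays (left of each pair) and the 6 DMSO arrays (right), with black lines at the means and a dashed line at the median of all probes. Both probes of UGT2B11 and the probe of UGT2B28 are higher under R1881, without overlap, while the other probes overlap.

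Several of these genes share long stretches of sequence, so cross-hybridization between family members is possible, and the probe sequences were not used here. UGT2B11 had a second probe, which read 7.49, 7.71, 8.24, 7.55, 7.34 and 8.20 under R1881, against 6.67, 6.77, 6.99, 6.84, 6.58 and 6.97 under DMSO. The groups did not overlap, and the 2 highest R1881 arrays were those of cluster A, as for UGT2B28. Its difference was 0.95 (SE 0.23, adjusted p = 0.122 by limma in a fit over all 48107 probes), and adjusted p = 0.00143 with the 5 arrays that stand apart left out, which was added once the data had been seen. One of these arrays, Spironolactone 2, read 9.36 with the second probe and 6.69 with the first, whereas the other Spironolactone arrays read 7.21 and 7.13 with the second and 6.91 and 6.95 with the first. The other probes of UGT2B17 and UGT2B15 changed by -0.08 to 0.0031 under R1881, and 1 of the 4 UGT2B17 probes did not pass the filter on dim probes.

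The 28 chemicals given with R1881 were each compared with R1881 alone, which asks whether a chemical moved these genes in the presence of the androgen. UGT2B11 fell under 19 of 28 chemicals and rose under 0 by limma, and 21 had an unadjusted p under 0.05. With its second probe UGT2B11 was called under 0 chemicals by limma, with 17 at an unadjusted p under 0.05, and under 2 without the 5 arrays that stand apart, where 0.232% and 0.139% of all probe tests were called lower. Over the 28 comparisons pooled, 0.533% of all tests were called lower and 4.1% had an unadjusted p under 0.05. In those 19 comparisons the share of all genes called was 0.00538% to 17.7%, with a median of 0.0323%. UGT2B11 had the smallest p-value of all 18571 genes in 17 of the 19. In 17 of them at most 10 genes were called in all, and under Cyproterone acetate UGT2B11 was the 1 gene called. The share called was 0.00538% under Cyproterone acetate, 0.0108% under DDE and Hydroxyflutamide, 0.0215% under Linuron and Tebuconazole, and 0.0269% under Dehydroepiandrosterone, Finasteride, Prochloraz and Triticonazole. It was 0.0323% under BisphenolA, 0.0431% under Bicalutamide and Vinclozolin, 0.0485% under Fenitrothion, Mifepristone and Procymidone, and 0.0538% under Flutamide and Progesterone. Among the 9 chemicals under which UGT2B11 was not called, the share was 0% under Androstenedione, Atrazine, Dihydrotestosterone, Iprodione and Norethindrone, 0.124% under Dexamethasone, 0.323% under Testosterone propionate, 0.619% under MethylTestosterone and 10.2% under Trenbolone. All 28 comparisons share the 6 R1881 arrays.

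**Figure D2:**
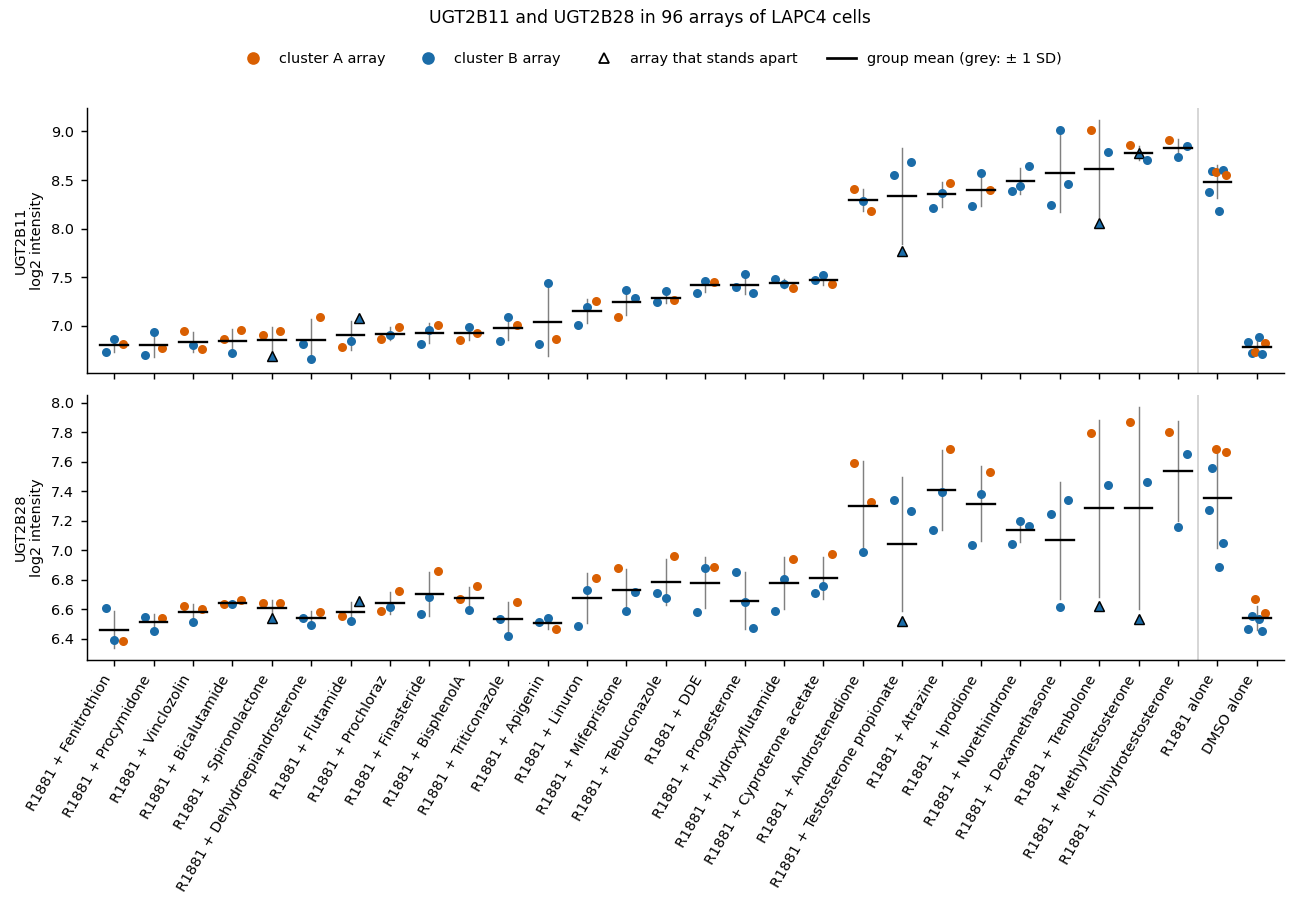
Log2 intensity of UGT2B11 (top) and UGT2B28 (bottom) in each array, for the 28 chemicals with R1881 in order of their UGT2B11 mean, then R1881 alone and DMSO alone; colours give the array cluster, triangles the arrays that stand apart, lines the mean and grey bars 1 SD. The UGT2B11 means of 19 chemicals lie between 6.80 and 7.48 and those of the 9 others between 8.29 and 8.83.

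The group means of UGT2B11 fell into 2 separate ranges. Ordered by level, the widest gap between neighbours was 0.82, between Androstenedione at 8.29 ± 0.12 and Cyproterone acetate at 7.48 ± 0.05 (SD, n = 3 each). Of 29 neighbouring pairs of groups only 2 differed by more than their pooled SD, this one and DDE at 7.42 ± 0.07 against Tebuconazole at 7.29 ± 0.06. For the other neighbours within either range the order is therefore not resolved.

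The pharmaceutical antiandrogens all lay in the lower range, at both its ends. With Bicalutamide, a nonsteroidal antiandrogen, UGT2B11 read 6.86, 6.72 and 6.96, a change of -1.64 (SE 0.13, adjusted p = 1.44e-14). With Flutamide, an antiandrogen given as a precursor, it read 6.79, 6.84 and 7.08, and with Hydroxyflutamide, the active metabolite of Flutamide, 7.49, 7.43 and 7.39. The R1881 arrays read 8.19 to 8.61, and none of these arrays overlapped them. Of all genes, 3.04% did not overlap R1881 alone under Bicalutamide, 1.58% under Flutamide and 1.35% under Hydroxyflutamide. The change was -1.58 under Flutamide (adjusted p = 7.1e-14) and -1.05 under Hydroxyflutamide (adjusted p = 8.4e-07). Cyproterone acetate, a steroidal antiandrogen, read 7.47, 7.53 and 7.43, and Spironolactone, a mineralocorticoid receptor antagonist with antiandrogen action, read 6.91, 6.69 and 6.95. The changes were -1.01 under Cyproterone acetate (adjusted p = 2.75e-06) and -1.63 under Spironolactone (adjusted p = 1.6e-14). Finasteride, an inhibitor of steroid reductase, read 6.81, 6.95 and 7.01, a change of -1.56.

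Fungicides and other pesticides lay in both ranges. Fenitrothion, an organophosphate insecticide, gave the lowest mean, with 6.73, 6.86 and 6.82 (a change of -1.68, adjusted p = 4.05e-15). Procymidone read 6.70, 6.94 and 6.77, and Vinclozolin read 6.95, 6.80 and 6.76. Both of these dicarboximide fungicides had arrays inside the DMSO range of 6.71 to 6.88. The azole fungicides Prochloraz, Triticonazole and Tebuconazole had means of 6.92 ± 0.07, 6.98 ± 0.12 and 7.29 ± 0.06 (SD, n = 3 each). Linuron, a urea herbicide, read 7.01, 7.19 and 7.25, and DDE, a metabolite of the insecticide DDT, read 7.34, 7.46 and 7.45. All of these were called lower than R1881 alone. The other 2 pesticides were not called. The dicarboximide Iprodione read 8.24, 8.57 and 8.40, and the triazine herbicide Atrazine read 8.21, 8.37 and 8.47. These arrays lay inside the range of R1881 alone. The changes were -0.08 (95% interval -0.35 to 0.18) for Iprodione and -0.13 (95% interval -0.40 to 0.13) for Atrazine.

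BisphenolA, an industrial chemical, read 6.85, 6.99 and 6.93, a change of -1.56. Apigenin, a plant flavonoid, read 6.82, 7.45 and 6.86, a change of -1.44 with the largest spread among the 19 chemicals (SD 0.35). In the Apigenin comparison 1.41% of all genes were called, and in the Spironolactone comparison 17.7%. Without Spironolactone 2 the change under Spironolactone was -1.55 (adjusted p = 3.83e-11), whereas with the second probe of UGT2B11 the change was 0.15 with all arrays and -0.59 without the 5 arrays that stand apart (adjusted p = 0.89 and 0.358 by limma).

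Steroids split between both ranges. Dehydroepiandrosterone, a precursor of androgens, read 6.81, 6.66 and 7.09 at 20 uM, a change of -1.63. Progesterone read 7.40, 7.53 and 7.34 and Mifepristone, an antagonist of the progesterone and glucocorticoid receptors, read 7.09, 7.37 and 7.29, both at 10 uM. The changes were -1.06 under Progesterone and -1.23 under Mifepristone, and no array reached the R1881 range. Of all genes, 1.53% did not overlap R1881 alone under Progesterone and 1.46% under Mifepristone. Androstenedione, at the same dose, read 8.41, 8.28 and 8.18 and was not called (-0.19, 95% interval -0.46 to 0.07).

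None of the steroids at 0.5 uM was called for UGT2B11. Dihydrotestosterone read 8.91, 8.74 and 8.85 and MethylTestosterone read 8.86, 8.78 and 8.71. In each group every array lay above the highest array of R1881 alone. Of all genes, 0.818% did not overlap R1881 alone, in either direction, under Dihydrotestosterone and 0.926% under MethylTestosterone. The differences of 0.35 (unadjusted p = 0.0108) and 0.30 (unadjusted p = 0.0289) did not pass the limma threshold, with adjusted p = 1 and adjusted p = 0.607. Trenbolone read 9.01, 8.05 and 8.78, Testosterone propionate read 8.55, 7.77 and 8.68, and Norethindrone, a progestin, read 8.39, 8.44 and 8.64. The lowest array of Trenbolone and of Testosterone propionate was number 2, which stands apart in both groups, as does MethylTestosterone 2. Dexamethasone, a glucocorticoid, read 8.24, 9.02 and 8.46 at 10 uM, and its highest array was above every R1881 array. Its change was 0.09 (95% interval -0.18 to 0.36).

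The share of the R1881 response left, which sets DMSO at 0% and R1881 alone at 100% on the log2 scale, puts these levels on the scale of the androgen effect. For UGT2B11 it was 0.99% ± 4.07 under Fenitrothion, 1.13% ± 7.3 under Procymidone and 2.99% ± 5.9 under Vinclozolin (SD, n = 3 each). It was 37.3% ± 3.87 under DDE, 37.5% ± 5.74 under Progesterone, 38.4% ± 2.73 under Hydroxyflutamide and 40.6% ± 2.92 under Cyproterone acetate. All 3 arrays of each of these 4 chemicals lay above every DMSO array and below every R1881 array. The same held for Linuron, Mifepristone and Tebuconazole, with shares of 21.6% ± 7.39, 27.3% ± 8.29 and 29.8% ± 3.42. How many of all genes had such arrays between the controls was not counted. The share was 88.7% ± 6.78 under Androstenedione and 121% ± 5.21 under Dihydrotestosterone. For UGT2B11 the DMSO arrays lay close to the median of their arrays, where the distance from background is not known. A share near 0% therefore does not show that no response was left. Shares on the log2 scale are not the part of transcript left.

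UGT2B28 was called lower under 4 of 28 chemicals, Apigenin, Fenitrothion, Procymidone and Spironolactone, and called higher under 0 by limma. At an unadjusted p under 0.05 there were 19. In these 4 comparisons 1.41%, 0.0485%, 0.0485% and 17.7% of all genes were called. With Fenitrothion UGT2B28 read 6.61, 6.39 and 6.39, against 6.89 to 7.69 in the R1881 arrays, a change of -0.89 (SE 0.18, adjusted p = 0.00875). With Apigenin it read 6.51, 6.54 and 6.47, a change of -0.85 (adjusted p = 0.00283), and with Procymidone 6.55, 6.45 and 6.54, a change of -0.84 (adjusted p = 0.0284). Spironolactone read 6.64, 6.54 and 6.64, a change of -0.75 (adjusted p = 0.0018). These 4 chemicals did not overlap R1881 alone in any array, and neither did 12 others. Over all genes and the 28 comparisons pooled, 2.02% of groups did not overlap. The share was 6.26% under Apigenin, 1.29% under Fenitrothion, 1.8% under Procymidone and 11.1% under Spironolactone.

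The number of calls for UGT2B28 changed with the arrays included. It was 0 with controls 1b to 3b alone (18 at an unadjusted p under 0.05), 0 by limma with only the groups compared in the fit (19 unadjusted), and 2 with same-numbered controls averaged. Without the 5 arrays that stand apart it was 15, where 0.323% of all tests over the 28 comparisons were called lower. With the array cluster also taken as a block, which was added once the data had been seen, it was 19, where 0.661% were. In the last fit these were the same 19 chemicals under which UGT2B11 was called with all arrays, and 0.124% to 15.7% of all genes were called in them. There UGT2B28 fell by 0.89 under Fenitrothion (adjusted p = 7.99e-08), by 0.81 under Dehydroepiandrosterone (adjusted p = 1.68e-06) and by 0.54 under Cyproterone acetate (adjusted p = 0.0128). Leaving out single arrays gave 3 to 8 chemicals in place of 4. The count was 8 without R1881 1b, Trenbolone 1, Trenbolone 2, Testosterone propionate 2, MethylTestosterone 1 or MethylTestosterone 2, and 7 without R1881 2b or Dexamethasone 2. The call under Apigenin held in all 96 such fits. The Fenitrothion call was lost without Fenitrothion 2 or 3, the Spironolactone call without Spironolactone 2, and the Procymidone call without any 1 of its 3 arrays or without R1881 2, 3 or 3b.

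**Figure D3:**
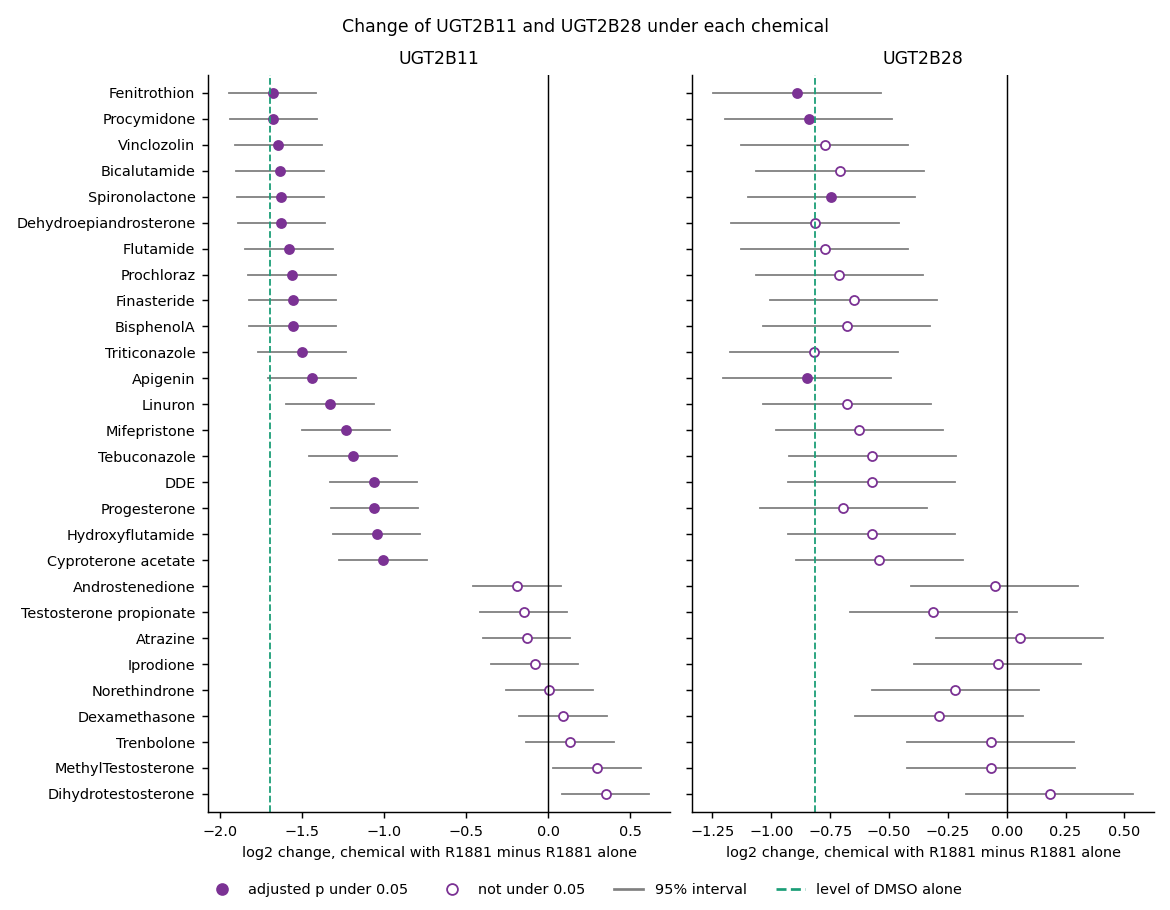
Log2 change of UGT2B11 (left) and UGT2B28 (right) under each chemical with R1881 against R1881 alone, with the 95% interval of the limma fit over all arrays; filled points passed adjusted p under 0.05 and the dashed line is the level of DMSO. UGT2B11 was called under 19 chemicals and UGT2B28 under 4, and under those 19 the change of UGT2B28 lies between -0.89 and -0.54.

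Over the 30 group means, UGT2B11 and UGT2B28 had a Pearson r of 0.95, and 0.97 after the array cluster was taken out, which is a description over groups. Under the 19 chemicals that lowered UGT2B11, UGT2B28 changed by -0.54 to -0.89, and under the 9 others by -0.31 to 0.18. In the fit with all arrays UGT2B28 was called under 4 of these 19. Arrays of cluster A compared with the 2 cluster A arrays of R1881 gave lower UGT2B28 in 18 of 18 combinations of chemical and cluster for the 19 chemicals, with changes of -1.29 to -0.70. In cluster B it was lower in 19 of 19, with changes of -0.72 to -0.46. UGT2B11 was lower in 18 of 18 in cluster A, with changes of -1.80 to -1.12, and in 19 of 19 in cluster B, with changes of -1.75 to -0.94. The combinations within a cluster share its R1881 arrays. UGT2B10 was also lower in 18 of 18 in cluster A and in 13 of 19 in cluster B. The counts were 16 of 18 and 12 of 19 for UGT2B7, and 6 of 18 and 12 of 19 for UGT2B15. For UGT2B17 they were 6 of 18 and 5 of 19. How many of all genes were lower so often was not counted. The 19 chemicals were chosen by the call of UGT2B11 on these same arrays, so its own counts largely follow from that choice. UGT2B28 followed UGT2B11 over the groups, so its counts are not separate from that choice.

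By the same measure, the 10 genes whose group means were most like UGT2B11 were C9orf152 (r = 0.96), UGT2B28, PHACTR3, S100P, HPGD, DIO2, NPPC, MME, NDRG1 and RASD1 (r = 0.91), over 30 groups. UGT2B28 was 1st of these after the array cluster was taken out. Of the 9 that are not UGT2B genes, S100P, HPGD, DIO2, NPPC, MME and NDRG1 were called higher under R1881, by 0.64 for MME to 1.89 for NPPC, and C9orf152, PHACTR3 and RASD1 were not, at 0.45, 0.44 and 0.89. Over all genes 0.118% were called higher under R1881. The group means used to choose these genes include R1881 and DMSO, so their calls partly follow from that choice. For UGT2B28 the 3 most alike were DIO2, UGT2B11 and EAF2, with r of 0.95, 0.95 and 0.93. DIO2 activates thyroid hormone, HPGD degrades prostaglandins and NPPC encodes C-type natriuretic peptide.

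With the brightest probe of each gene, the 4 other members were called under 0 of 28 chemicals by limma, and under 0 at an unadjusted p under 0.05. The largest change of UGT2B17 in either direction was -0.42, under Testosterone propionate (unadjusted p = 0.126), and that of UGT2B15 was -0.41, also under Testosterone propionate (unadjusted p = 0.271). Over all chemicals the 95% intervals for UGT2B17 reached -0.96 and 0.96, and those for UGT2B15 reached -1.16 and 1.12. Changes inside these intervals could have been missed for both genes. Under Spironolactone, UGT2B17 read 8.52, 6.60 and 8.29, and UGT2B15 read 8.21, 6.43 and 7.88. The highest R1881 arrays read 7.97 for UGT2B17 and 7.66 for UGT2B15. Spironolactone 1 and 3, of cluster A, lay above these for both genes. Spironolactone 2, which stands apart, lay below every R1881 array. How many of all genes had arrays in this order was not counted. Calls of the 4 other members appeared under other settings. With array weights, whose estimation stopped before convergence, there were 8, among them UGT2B17 at 0.83 and UGT2B15 at 0.93 under Spironolactone. Without the 5 arrays that stand apart and with clusters of deviations from group means as a block there were 3, all lower under Progesterone, namely UGT2B15 at -0.54, UGT2B17 at -0.41 and UGT2B10 at -0.18. For UGT2B10 and UGT2B7 the intervals stayed within -0.36 to 0.30 and -0.20 to 0.21. All of these probes except that of UGT2B17 were dim.

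The other probes of UGT2B17 gave calls under Spironolactone. The probe ILMN_1752214 read 7.91, 7.77 and 7.65 in the Spironolactone arrays, against 6.75, 6.99, 7.36, 6.62, 6.65 and 7.31 in the arrays of R1881 alone, without overlap. Its change was 0.83 (SE 0.26, adjusted p = 0.0191 by limma over 48107 probes), and 0.84 with adjusted p = 0.187 without the 5 arrays that stand apart, a setting added once the data had been seen. Spironolactone 1 and 3 belong to cluster A, as do only 2 of the 6 R1881 arrays, those reading 7.36 and 7.31. The probe ILMN_1801263 read 6.55, 8.36 and 6.69, against 6.49 to 6.62 in the arrays of R1881 alone. The high value is that of Spironolactone 2, which stands apart, and the change of 0.62 (adjusted p = 0.0114 by limma) was 0.04 without the 5 arrays (adjusted p = 0.962). Of all probes 9.43% were called higher in this comparison with all arrays, and 0.979% without the 5. Over all genes, 11.1% had groups that did not overlap in this comparison.

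UGT2B15 and UGT2B17 had higher levels in cluster A than in cluster B. UGT2B15 read 7.05 to 8.21 with a median of 7.67 in the 34 arrays of cluster A, and 6.41 to 7.39 with a median of 6.79 in the 57 arrays of cluster B that do not stand apart. UGT2B17 read 7.68 to 8.52 with a median of 7.99 in cluster A and 6.74 to 8.01 with a median of 7.53 in cluster B. The ranges of the clusters overlapped a little for both genes. The mean difference, cluster A minus cluster B, was 0.84 for UGT2B15 and 0.49 for UGT2B17, against 0.21 for UGT2B10, 0.12 for UGT2B28, 0.0059 for UGT2B7 and -0.19 for UGT2B11. These differences pool all groups, and Norethindrone, Testosterone propionate, Progesterone and Dexamethasone had no array in cluster A. With arrays that stand apart left out, 25 groups held both clusters. Every cluster A array lay above every cluster B array of its group in 25 of these for UGT2B15 and for UGT2B10. The count was 24 for UGT2B17, 20 for UGT2B28, 11 for UGT2B7 and 8 for UGT2B11. How many of all genes had arrays in this order was not counted, so these counts do not set the members apart from other genes. In BisphenolA, for example, UGT2B15 read 7.90 and 7.74 in the arrays of cluster A and 6.79 in the array of cluster B. The clusters were found without the UGT2B genes, the labels do not say what sets them apart, and no test was made of the difference.

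**Figure D4:**
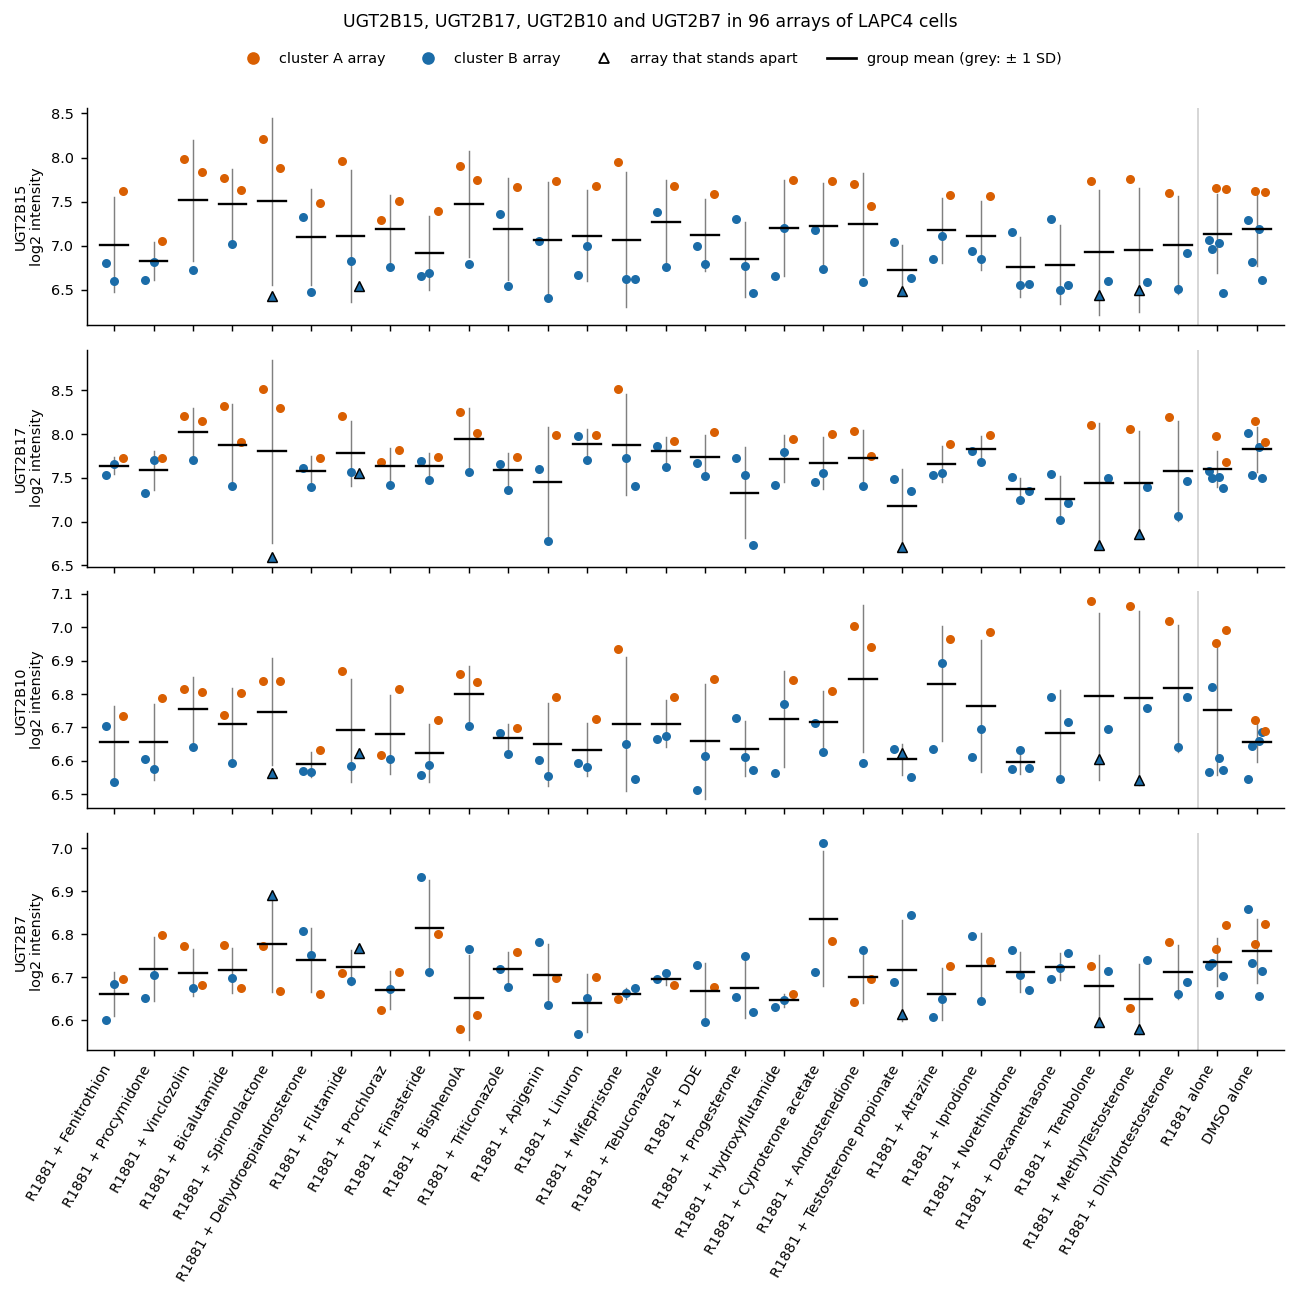
Log2 intensity of UGT2B15, UGT2B17, UGT2B10 and UGT2B7 in each array, with the same groups, colours, triangles and lines as in the plot of UGT2B11 and UGT2B28. With the arrays that stand apart left out, the median of UGT2B15 is 7.67 for points of cluster A and 6.79 for points of cluster B, while UGT2B17 has a median of 7.99 for cluster A against 7.53 for cluster B.

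UGT2B15 and UGT2B17 had a Pearson r of 0.82 over the 30 group means, and 0.55 after the array cluster was taken out, again as a description. The genes most like UGT2B15 were ARHGAP11B, ARRDC3 and MEST (r = 0.96 to 0.95), and those most like UGT2B17 were CCNG2, CASP6 and CHEK2 (r = 0.91 to 0.89). For UGT2B10 they were LIFR, NAT1 and ZNF761 (r = 0.82 to 0.78), and for UGT2B7 they were CELSR2, ARNT2 and SUPT3H (r = 0.62 to 0.58). None of these 12 genes was called under R1881.

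UGT2B10, whose promoter is the closest to that of UGT2B11 among the 4 members with sequence, was not called under R1881 or any chemical in the limma fit with all arrays. Under R1881 it read 6.95 and 6.99 in cluster A and 6.57 to 6.82 in cluster B, against 6.69 and 6.72 in cluster A and 6.54 to 6.69 in cluster B under DMSO. In cluster A the change was 0.27 and in cluster B 0.0078, with 2 and 4 arrays per group. Under the 19 chemicals that lowered UGT2B11, its changes in cluster A were -0.34 to -0.04, and those of UGT2B7, also a dim probe, were -0.20 to 0.0058. All of them are set against the same 2 R1881 arrays, so they are not separate observations. In cluster B the changes of UGT2B10 were -0.08 to 0.06 and those of UGT2B7 -0.10 to 0.19. Over the 30 group means, the r of UGT2B10 was 0.43 with UGT2B11 and 0.59 with UGT2B28. With the cluster taken out it was 0.77 and 0.80. Whether the changes differ between clusters was not tested.

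Chemicals at equal dose were also compared with each other, in 22 pairs, which asks whether related compounds left different levels. UGT2B11 was called in 7 of 22 pairs, and UGT2B28 in 0 by limma, with 5 at an unadjusted p under 0.05. For UGT2B11 the count was 4 with the probes of a gene averaged and 0 by limma with only the groups compared in the fit (12 at an unadjusted p under 0.05). Over the 22 pairs pooled, 0.604% of all tests were called and 5.24% had an unadjusted p under 0.05. In the 7 pairs the share of all genes called was 0.0108% to 11.7%, and in the 15 others it was 0% to 1.16%. No other member was called in any pair, and none had an unadjusted p under 0.05.

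Among the dicarboximide fungicides at 20 uM, which all carry a dichlorophenyl ring, UGT2B11 was 1.56 higher with Iprodione, which has a hydantoin ring, than with Vinclozolin, which has an oxazolidinedione ring (95% interval 1.26 to 1.87, adjusted p = 5.94e-11, 0.0215% of all genes called). It was 1.60 higher with Iprodione than with Procymidone, which has a succinimide ring (95% interval 1.29 to 1.90, adjusted p = 2.59e-11, 0.0323% called). The means were 8.40 for Iprodione, 6.84 for Vinclozolin and 6.81 for Procymidone. Procymidone and Vinclozolin differed by -0.03 (95% interval -0.34 to 0.28), so a difference larger than about 0.3 lies outside the interval. UGT2B28 was 0.73 higher with Iprodione than with Vinclozolin (adjusted p = 1) and 0.80 higher than with Procymidone (adjusted p = 0.595).

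Hydroxyflutamide differs from Flutamide by an added hydroxyl group. UGT2B11 was 0.53 higher with Hydroxyflutamide (95% interval 0.23 to 0.84, unadjusted p = 0.000918), which did not pass after adjustment (adjusted p = 1 by limma). Bicalutamide differed from Hydroxyflutamide by -0.59 (95% interval -0.90 to -0.28, adjusted p = 1) and from Flutamide by -0.06 (95% interval -0.36 to 0.25). Fenitrothion, which shares a nitro-substituted aromatic ring with Flutamide, differed from it by -0.10 (95% interval -0.41 to 0.21).

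Between the herbicides Linuron and Atrazine the difference was -1.20 (adjusted p = 5.34e-07), with Linuron lower, and 0.0162% of all genes were called. Cyproterone acetate was 0.62 higher than Spironolactone (adjusted p = 0.00679), but the difference was 0.55 with adjusted p = 0.195 without Spironolactone 2 and -0.04 with the mean of both UGT2B11 probes, and 11.7% of all genes were called in that pair. The azoles Tebuconazole and Prochloraz differed by 0.37 (95% interval 0.06 to 0.68, adjusted p = 1), and DDE and BisphenolA by 0.49 (95% interval 0.19 to 0.80, adjusted p = 1). Dehydroepiandrosterone and Finasteride differed by -0.07 (95% interval -0.38 to 0.24).

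Among the steroids at 10 uM, UGT2B11 differed between Mifepristone and Dexamethasone by -1.32 (adjusted p = 1.23e-08, 0.0915% of all genes called) and between Progesterone and Dexamethasone by -1.15 (adjusted p = 1.99e-06, 0.0646% called). Progesterone differed from Androstenedione by -0.87 (adjusted p = 0.00684, 0.0108% called). That last call was lost without Androstenedione 1 (adjusted p = 0.135), Androstenedione 2 (adjusted p = 0.0732) or Progesterone 3 (adjusted p = 0.0928). Mifepristone and Progesterone differed by -0.17 (95% interval -0.48 to 0.13).

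Of the steroids at 0.5 uM, none of the 6 pairs compared was called for UGT2B11, while up to 1.16% of all genes were called, in Norethindrone against Trenbolone, and 0.113% in MethylTestosterone against Testosterone propionate. MethylTestosterone, a methylated testosterone, and Dihydrotestosterone differed by -0.05 (95% interval -0.36 to 0.26). Testosterone propionate, an ester of testosterone, differed from Dihydrotestosterone by -0.50 (unadjusted p = 0.00183, adjusted p = 0.274), and its array 2, which stands apart, was the lowest of its group.

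Of 60 measured genes on the lists of glucuronidation, androgen metabolism and factors known to act on UGT2B genes, the 6 members left out, 0 were called under R1881 by limma, where 0.124% of all genes were called, so a count of 0 does not set these lists apart. Of 14 other measured UDP-glycosyltransferases 0 were called under R1881 by limma, with a median change of -0.03, against -0.0035 over all genes. UGT2B4, the bile acid conjugating enzyme of the same chromosomal cluster, changed by 0.04 (SE 0.29). Of 9 genes that supply UDP-glucuronic acid 0 were called (median 0.12), with UGDH, which makes the cofactor, at 0.23 (SE 0.42) and UGP2 at 0.0060 (SE 0.46). Of 4 genes of glucuronide hydrolysis and efflux 0 were called, and of 22 genes of androgen interconversion 0 were called, with the steroid reductase SRD5A1 at 0.15 (SE 0.17) and HSD17B6 at 0.06 (SE 0.10). Of 11 factors known to act on UGT2B genes 0 were called, with FOXA1 at 0.08 (SE 0.35). In the same comparison 11 of 18 genes of an androgen-induced reference list were called higher, with a median of 1.24. That list was drawn up with results of these data known, so its count is not independent evidence.

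Under the chemicals, these 60 genes had calls in the Apigenin, Spironolactone and Trenbolone comparisons alone, the 3 with the highest shares of all genes called, 1.41%, 17.7% and 10.2%. There 2, 17 and 9 of the 60 were called, or 3.33%, 28.3% and 15%. Under Apigenin, PGM2, a phosphoglucomutase, fell by 1.20 (adjusted p = 0.0194) and CEBPA, a transcription factor, fell by 1.11 (adjusted p = 0.0141). Under Spironolactone 8 rose and 9 fell. FOXA1 fell by 3.16 (adjusted p = 2.15e-07), HK2, a hexokinase, fell by 1.37 and SULT2A1, a steroid sulfotransferase, rose by 1.35. Under Trenbolone 6 rose, namely UGT2B4 by 1.22 (adjusted p = 0.0226), SRD5A2 by 1.07, HSD17B11 by 0.89, SULT1E1 by 0.56, UGT3A1 by 0.55 and UGT1A4 by 0.52. The 3 that fell were FOXA1 with a change of -1.499, PGM1 with -0.96 and HK1 with -0.82. The Spironolactone and Trenbolone comparisons each hold an array that stands apart, with a mean luminal marker level of 7.57 in Spironolactone 2 and 7.17 in Trenbolone 2, and the part of these arrays in the calls was not tested for the list genes.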

How the data were processed

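RNA of LAPC4 cells was measured on 96 Illumina HT-12 arrays. The authors deposited log2 intensities for 48107 probes. The submitters' processing notes name limma, while background correction and normalization are not given in the sources used here. The array medians were equal, and 191 missing values touched none of the 6 genes. No depth applies to arrays, so their number limits the precision.

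Groups followed the labels. Probes above the median of their array in at least 3 arrays were kept (43820), named through the platform annotation (30113 probes with 1 symbol, 8 with several, 17986 not listed), and the brightest probe stood for each of 18571 genes. One mean per group was fitted over all arrays with limma 3.58.1 in R 4.3.3 (lmFit, contrasts.fit, eBayes), with Benjamini-Hochberg adjustment and a threshold of 0.05. Named genes were all members, the genes most like each member by Pearson correlation of group means (10 for UGT2B11, 3 for the others), and the defining and called genes of the lists. The labels do not say what the control arrays 1b to 3b are or whether replicates are separate cultures, so the p-values reflect no more than how these samples vary, some of which could be technical. Array clusters came from k-means on gene-centred profiles without the members, added after seeing the data. The code was tested on simulated data. The members, lists and pairs were chosen with earlier results of these data known. Alternatives covered normalization, filters, probes, blocks, weights and left-out arrays.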

Additional observations from a re-analysis of the deposited data

How the results depend on the processing

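The rise of UGT2B11 under R1881 ranged from 1.67 to 1.76 and that of UGT2B28 from 0.75 to 0.91 when each of the 96 arrays was left out in turn, and both stayed called (2 members in each fit). UGT2B11 stayed called under 19 chemicals in all of these fits, UGT2B28 under 3 to 8, the other 4 members under 0, and UGT2B11 in 6 to 9 pairs. With the second probe, UGT2B11 differed by 0.95 without passing (adjusted p = 0.122) and was called under 0 chemicals by limma, with 17 at an unadjusted p under 0.05, or under 2 without the 5 arrays that stand apart, which was chosen after seeing the data. With that probe the change under Spironolactone was 0.15 with all arrays, opposite in sign, and -0.59 without the 5, and with the mean of both probes the difference of Cyproterone acetate and Spironolactone was -0.038.

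The change of UGT2B28 under R1881 was 0.94 with controls 1 to 3, 0.68 with controls 1b to 3b and 0.81 with same-numbered controls averaged, not called in any of these, which left 1 member called each time. Its count of 4 chemicals was 8 after cyclic loess, 8 with the replicate block, 18 with array weights, 15 without the 5 arrays, 19 without them and with clusters of deviations as a block, 2 with averaged controls, and 0 with controls 1b to 3b (18 unadjusted) or with only the groups compared fitted (19 unadjusted). With clusters of profiles as a block, added after seeing the data, it was 19 without the 5 arrays and 11 with all. The other 4 members had 1 call with probes averaged, 8 with array weights and 3 with clusters of deviations as a block. Pairs called for UGT2B11 were 4 with probes averaged, 11 with array weights and 0 with only the groups compared (12 unadjusted). The cause of these differences was not tested.

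Arrays of the same number had correlated deviations (r over 0.1) in 60 but not all of 87 comparisons (median 0.52, lowest -0.70), and 43 correlated best with their own number, so the numbers were not taken as pairs. The replicate block left UGT2B11 at 19 chemicals and gave UGT2B28 8.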
